A study of Mus musculus with 6 samples.

Results

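The 6 connexin genes Gjb2, Gjb6, Gja1, Gjc1, Gjb1 and Gjc3 were followed in bulk RNA sequencing of the mouse cochlear lateral wall. They were matched by symbol in a deposited table of 17091 genes, and all 6 were found. The old group was 3 CBA/CaJ mice aged 2.5 years and the young group 3 CBA/CaJ mice aged 2 months, an inbred strain with no engineered allele or treatment named in the labels. Each library pooled the 2 cochleas of 1 mouse, so the tests compare animals. The labels give the tissue as isolated lateral wall, although their source field names auditory nerve cells.

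Connexins are the subunits of gap junctions, the channels that join the cytoplasm of neighbouring cells. In the cochlear lateral wall, fibrocytes of the spiral ligament and the basal and intermediate cells of the stria vascularis are joined by gap junctions. Through this network potassium is thought to pass from the ligament to the stria, where marginal cells secrete it into endolymph. Gjb2 and Gjb6 encode Cx26 and Cx30, the main connexins of the cochlea, and mutations of either human gene cause deafness. Gja1 encodes Cx43, the widely expressed connexin of fibroblasts, bone cells and astrocytes. Gjc1 encodes Cx45 of vascular smooth muscle and heart. Gjb1 encodes Cx32 and Gjc3 encodes mouse Cx29, both connexins of myelinating Schwann cells.

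In GRCm38, the assembly that mm10 names, Gjb2 lies on chromosome 14 from 57098600 to 57104702 and Gjb6 on the same strand from 57123303 to 57133611, with 18600 bases between them. Gja1 lies on chromosome 10 from 56377330 to 56402513, Gjc1 on chromosome 11 from 102799579 to 102819700, Gjc3 on chromosome 5 from 137953461 to 137963098 and Gjb1 on chromosome X from 101376378 to 101385629 (GENCODE M21). None of the 6 overlaps another annotated gene. The 250 bases before the RefSeq start are shown for the neighbouring pair Gjb2 and Gjb6, and for Gja1 and Gjc3, the 2 members whose groups did not overlap. For Gja1 this window ends at 56377299, short of the GENCODE start at 56377330. Sequences are from RefSeq on GRCm38.p6, which held 5 of the 6 members in the table used, and are read 5′ to 3′ on the strand of the gene. Capitals mark matches, on either strand, to the GC box GGGCGG, the TATA box TATAAA, the CCAAT box CCAAT, the SOX core ACAAAG or the AP-1 core TGACTCA.
Gjb2, chr14:57104703-57104952, minus strand: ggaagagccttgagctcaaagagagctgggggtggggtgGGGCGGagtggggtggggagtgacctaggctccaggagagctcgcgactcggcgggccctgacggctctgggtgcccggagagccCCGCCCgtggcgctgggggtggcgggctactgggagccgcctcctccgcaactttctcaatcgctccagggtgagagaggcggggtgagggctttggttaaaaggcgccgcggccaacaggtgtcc
Gjb6, chr14:57133612-57133861, minus strand: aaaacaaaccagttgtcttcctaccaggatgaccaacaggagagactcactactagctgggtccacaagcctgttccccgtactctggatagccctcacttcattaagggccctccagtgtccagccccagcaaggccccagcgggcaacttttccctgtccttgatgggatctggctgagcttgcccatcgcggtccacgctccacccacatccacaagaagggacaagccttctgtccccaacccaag
Gja1, chr10:56377050-56377299, plus strand: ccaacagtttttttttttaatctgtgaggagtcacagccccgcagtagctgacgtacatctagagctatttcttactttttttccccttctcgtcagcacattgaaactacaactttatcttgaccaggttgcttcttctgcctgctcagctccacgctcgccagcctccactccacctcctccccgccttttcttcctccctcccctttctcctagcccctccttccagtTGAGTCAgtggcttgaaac
Gjc3, chr5:137963099-137963348, minus strand: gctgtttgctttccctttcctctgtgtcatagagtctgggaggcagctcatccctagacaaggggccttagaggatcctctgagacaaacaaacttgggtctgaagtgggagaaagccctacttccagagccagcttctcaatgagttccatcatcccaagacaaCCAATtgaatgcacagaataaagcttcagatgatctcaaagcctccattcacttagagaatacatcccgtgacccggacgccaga
The Gjb2 window held 2 GC boxes and the Gjb6 window no match to any of the 5 motifs. The Gja1 window held 1 AP-1 core and the Gjc3 window 1 CCAAT box. Among 32851 windows of this length in the same table, 32.7% held a GC box, 12.4% a TATA box, 33.8% a CCAAT box, 16.5% a SOX core and 4.46% an AP-1 core. GC content was 69.2% for Gjb2, 56.8% for Gjb6, 50% for Gja1 and 48.8% for Gjc3, against a median of 52.4% over all windows. No motif searched was in the windows of both neighbours, Gjb2 and Gjb6, which says only that these letters are not in these windows.

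The libraries held 37055355 to 39103398 reads over the listed genes. No 2 of the 6 libraries agreed within sampling noise (15 pairs compared). Defining genes of the lateral wall were abundant in every library. Kcne1 of marginal cells had 23748 to 29979 normalised read counts in the old and 23286 to 30938 in the young libraries, Dct of intermediate cells 135921 to 186382 and 167796 to 172081, and the fibrocyte gene Coch 322028 to 728041 and 725083 to 821557. Old replicate 3 stood apart in Xist, the transcript of the inactive X chromosome, with 45.2 normalised read counts against 24382 to 29162 in the other 5 libraries, and the labels give no sex. For the connexins and pannexins, values without that library are given where it moves the fold change by over 1.5 times.

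Gjb2 and Gjb6 made up nearly all connexin transcript of the tissue. Per kilobase of the longest principal transcript, Gjb6 averaged 23744 ± 5381 normalised read counts in old and 29074 ± 2018 in young mice, and Gjb2 20283 ± 4817 and 25196 ± 2707 (SD, n = 3 each). Among 15846 genes with such a length, Gjb6 ranked between 40 and 68 and Gjb2 between 47 and 83 in the 6 libraries. The next member, Gjc3, averaged 618 ± 137 per kilobase in old and 392 ± 98.0 in young mice. Gjc1 followed with 114 ± 47.9 in old and 123 ± 26.2 in young mice, Gja1 with 83.4 ± 15.5 and 128 ± 23.9, and Gjb1 with 14.4 ± 11.4 and 3.05 ± 1.51. In this order the ranges of Gjb6 and Gjb2 overlapped in both groups, as did those of Gjc1 and Gja1. Every other pair of neighbours was separate in both groups. Of the per-kilobase sum over the 10 connexin genes analysed, Gjb2 and Gjb6 together held 98.3%, 98.2% and 96.3% in old replicates 1, 2 and 3 and 98.6% to 98.7% in the young libraries. Gjc3 held 1.04% to 2.21% in old and 0.613% to 0.836% in young libraries. All of these levels depend on the transcript length chosen, which can change the order of genes but not the comparison of 1 gene between groups.

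No member passed the test of age over all genes. At a limma adjusted p under 0.05 (Benjamini-Hochberg over 17091 genes), 0 of 6 were called, where 5.25% of all genes were (2.71% higher and 2.55% lower in old). At an unadjusted p under 0.05 it was 2 of 6, Gja1 and Gjc3, where 21.3% of all genes were. The same 2 genes had no overlap between the groups, where 26.1% of all genes had none (13.2% higher and 12.8% lower in old). On reads recovered from the deposited values, edgeR called 0 of 6 (5.07% of all genes) and DESeq2 called Gja1 and Gjc3, 2 of 6 (10.9%, with 5.82% higher and 5.03% lower). In the authors' deposited table, the same 2 of 6 have an adjusted p under 0.05 (10.8% of genes there, with 5.82% higher and 5.03% lower). The DESeq2 run used reads recovered from that table and gave nearly the same values, so the 2 results are not independent. The median log2 fold change of the 6 was −0.25, and over all genes it was −0.001. In bulk tissue, fewer cells of a type and less RNA per cell cannot be told apart, and this holds for each value given here.

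**Figure D1:**
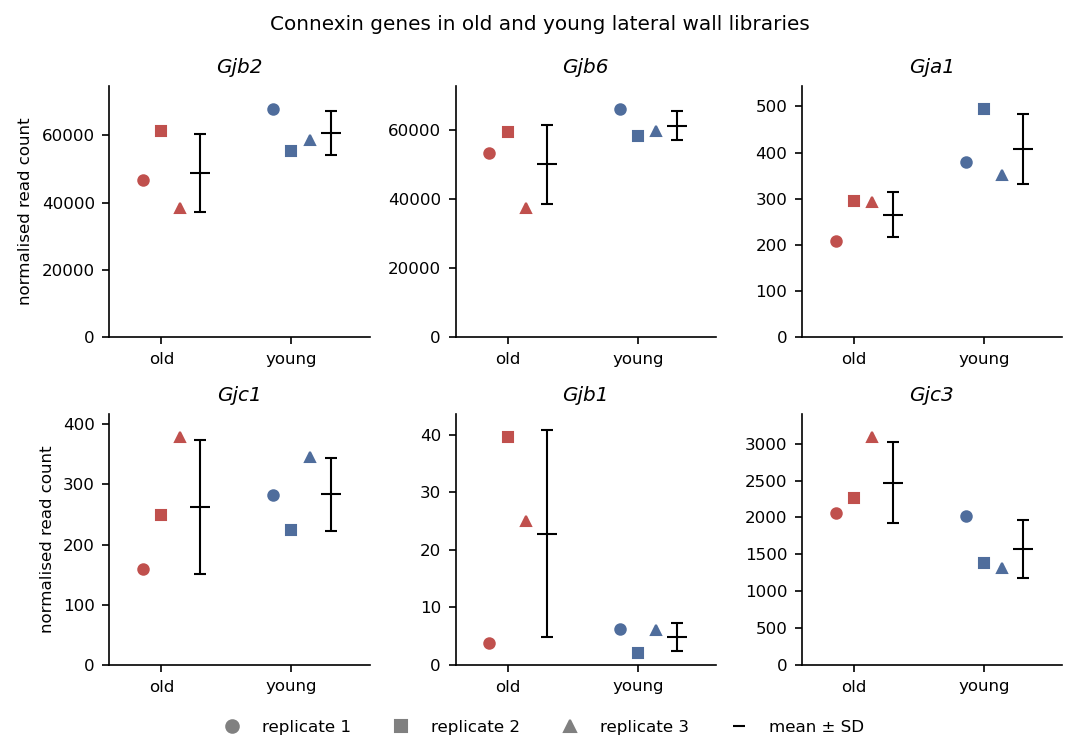
Normalised read count of each of the 6 connexin genes, with 1 point per library (3 old, 3 young; marker shape gives the replicate number, which is not known to pair animals) and a bar for the mean and SD of each group; every axis starts at 0. Old and young points are separate for Gja1 (all old below) and Gjc3 (all old above), and overlap for the other members.

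Gjb2 had 46842, 61246 and 38314 normalised read counts in old replicates 1, 2 and 3, against 67866, 55256 and 58741 in young replicates 1, 2 and 3. Old replicate 2 lay within the young range, and old replicates 1 and 3 lay below it. Gjb6 had 53404, 59201 and 37336 in the old libraries, against 66039, 58077 and 59486 in the young. Here too old replicate 2 lay within the young range, and old replicate 3 was the lowest library for both genes. The log2 fold change, old minus young on log2(value + 1), was −0.33 ± 0.17 for Gjb2 (SE, 95% interval −0.72 to 0.05, limma adjusted p = 0.300). It was −0.32 ± 0.17 for Gjb6 (−0.69 to 0.06, adjusted p = 0.316). Neither passed the test, and the intervals include both no change and a fall of about 0.7 on the log2 scale. Without old replicate 3 the log2 fold changes were −0.17 for Gjb2 and −0.12 for Gjb6. Without old replicate 2 they were −0.51 and −0.45.

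The 2 neighbouring genes were close to equal in normalised read count in every library. Gjb2 divided by Gjb6 was 0.877, 1.03 and 1.03 in old replicates 1, 2 and 3, against 1.03, 0.951 and 0.987 in young replicates 1, 2 and 3. Old replicate 1 was the lowest, and the groups overlapped. The log2 ratio averaged −0.03 ± 0.13 in old and −0.02 ± 0.06 in young mice (SD, n = 3 each), a difference of −0.02. A two-sided exact permutation test gave p = 0.9, where 0.1 is the smallest that 3 against 3 samples allow. The difference was 0.06 without old replicate 1 and 0.01 without young replicate 1.

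Summed markers of fibrocytes and of blood also differed among the old libraries. The 11 fibrocyte genes in the table summed to 847340, 1264260 and 729066 normalised read counts in old replicates 1, 2 and 3, and to 1319660 to 1509170 in the young. Coch, which encodes cochlin and is the largest part of that sum, had 437868, 728041 and 322028 in the old libraries, against 725083 to 821557 in the young, a log2 fold change of −0.75 ± 0.26 (limma adjusted p = 0.148). For Gjb2, Gjb6 and Coch alike, old replicate 2 was the highest and old replicate 3 the lowest of the old libraries. The next most abundant gene of the list, Slc12a2, a sodium, potassium and chloride cotransporter gene that marginal cells also use, ran the other way, with 165707, 142357 and 194835 in old replicates 1, 2 and 3, against 169519 to 181735 in the young (−0.09, adjusted p = 0.756). Of the 11 genes, Otos fell (−1.71 ± 0.20, adjusted p = 0.00321) and S100a6 rose (1.37 ± 0.29, adjusted p = 0.0310), and the median of the 11 was −0.43. An unadjusted limma p under 0.05 was found for 6 of the 11, and 5 had no overlap between the groups. The 15 red cell and marrow genes had their lowest old sum in replicate 2, with 25881, 7676 and 51533 in old replicates 1, 2 and 3 and 3284 to 5217 in the young. Of these genes 1 rose, Elane, and 0 fell, while all 15 had an unadjusted limma p under 0.05, 12 had no overlap between the groups and the median log2 fold change was 2.84. The 5 basal cell genes summed to 45616 to 52307 in old and 49752 to 52726 in young libraries, the 10 intermediate cell genes to 210159 to 312148 and 249782 to 260952, and the 7 spindle and root cell genes to 38336 to 79495 and 58984 to 71001. Of the basal and of the spindle and root cell genes limma called 0 (0 and 4 had an unadjusted p under 0.05), and of the intermediate cell genes 1 rose, Mlana. Of the other lists, 1 of 8 marginal cell genes fell, 9 of 12 macrophage genes rose, 1 of 10 hair and supporting cell genes rose and 2 of 8 skeletal muscle genes fell. Over all genes, limma called 2.71% higher and 2.55% lower in old. Among all genes 21.3% had an unadjusted p under 0.05 and 26.1% had no overlap between the groups. In the skeletal muscle list 2 genes were at 0 in at least 1 library, Myh1 in all 3 old libraries and Acta1 in old replicate 3. No gene of the fibrocyte, red cell and marrow, basal, intermediate or spindle and root cell lists was at 0 in any library. The part of these cells in the Gjb2 and Gjb6 values was not tested.

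**Figure D2:**
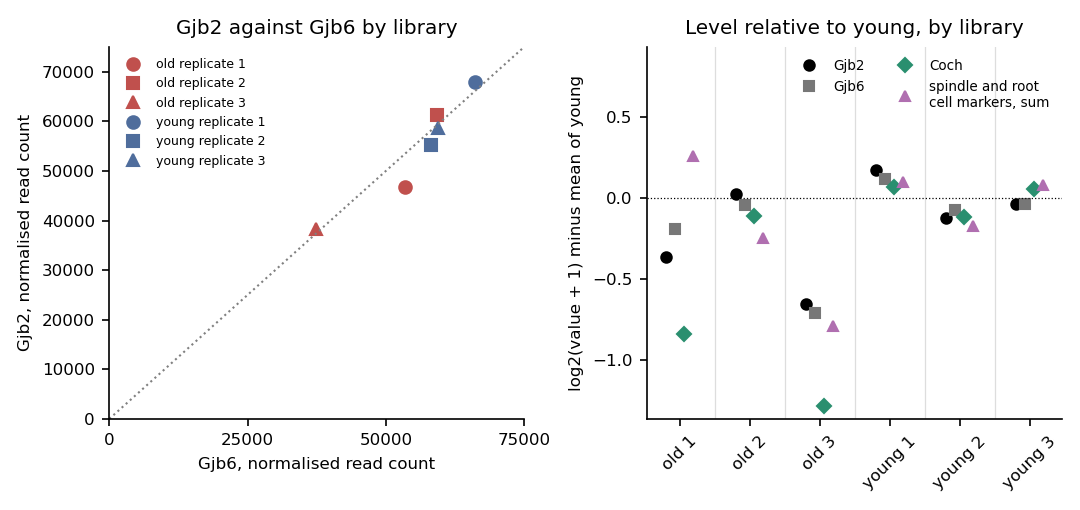
Left, normalised read count of Gjb2 against that of Gjb6, 1 point per library, with a dotted line where the 2 are equal; the points lie near the line, with old replicate 3 lowest. Right, log2(value + 1) of Gjb2, Gjb6, the fibrocyte gene Coch and the summed spindle and root cell markers in each library, minus the mean of the young libraries (dotted line at 0); old replicate 3 lies lowest for all 4, and old replicate 2 lies between −0.25 and 0.02 for all 4. In old replicate 1 the 4 part, with the spindle and root cell sum at 0.26, above every young library, and Gjb2 at −0.37, Gjb6 at −0.19 and Coch at −0.84.

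Gja1 stood lower in every old library than in any young library. It had 208, 296 and 292 normalised read counts in old replicates 1, 2 and 3, against 379, 495 and 351 in young replicates 1, 2 and 3. The means were 266 ± 49.4 in old and 408 ± 76.2 in young mice (SD, n = 3 each). The log2 fold change was −0.62 ± 0.20 (SE, 95% interval −1.08 to −0.16), with a limma adjusted p of 0.119 and an edgeR adjusted p of 0.121. DESeq2 gave an adjusted p of 0.0478, and the authors' deposited table holds 0.0481 with a signed fold change of −1.54. The direction held in each of the 16 alternatives, with values from −0.72 to −0.46 and adjusted p from 0.0478 to 0.354. The group of 12 osteoblast and osteocyte genes, cells that use Cx43, summed to 3648, 4316 and 5624 in old replicates 1, 2 and 3, against 13925 to 18765 in the young. Of these, 7 fell and 0 rose, among them Dmp1 of osteocytes (−1.26 ± 0.14, limma adjusted p = 0.00226) and the collagen gene Col1a2 (−3.73 ± 0.30, adjusted p = 0.00161). Col1a2 was the largest part of the young sums, with 8454 to 9884 in the young and 404 to 951 in the old libraries. Alpl, also among the 3 most abundant genes of the list, did not fall. It had 1850, 1858 and 2684 in old replicates 1, 2 and 3, against 1441 to 2039 in the young (0.26 ± 0.18, limma adjusted p = 0.448). The 7 chondrocyte genes summed to 4724 to 8383 in old and 11044 to 12349 in young libraries, and 3 fell and 0 rose. For both lists, the limma shares over all genes were 2.55% lower and 2.71% higher in old. No osteoblast, osteocyte or chondrocyte gene was at 0 in any library, and their part in the Gja1 value was not tested.

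Gjc1 showed no separation of the groups. It had 159, 250 and 380 normalised read counts in old replicates 1, 2 and 3, against 282, 224 and 345 in young replicates 1, 2 and 3. The lowest and the highest of the 6 libraries were both old. The log2 fold change was −0.18 ± 0.31 (95% interval −0.88 to 0.52, limma adjusted p = 0.797), and it was 0.14 without old replicate 1 and −0.49 without old replicate 3. The interval is wide enough to hold a rise or a fall of about 0.5. The 12 pericyte and smooth muscle genes, cells in which Cx45 is known, summed to 21603, 26249 and 28644 in old replicates 1, 2 and 3 and to 22624 to 24099 in the young. Of these limma called 0 (5.25% of all genes), and 4 had an unadjusted p under 0.05 (21.3% of all genes). Their part in the Gjc1 value was not tested.

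Gjc3 stood higher in every old library than in any young library. It had 2059, 2266 and 3098 normalised read counts in old replicates 1, 2 and 3, against 2022, 1379 and 1310 in young replicates 1, 2 and 3. Old replicate 1 and young replicate 1 were close together, so the gap between the groups is narrow. The log2 fold change was 0.66 ± 0.20 (SE, 95% interval 0.21 to 1.12), with a limma adjusted p of 0.1003 and an edgeR adjusted p of 0.101. DESeq2 gave an adjusted p of 0.0261, and the authors' deposited table holds 0.026 with a signed fold change of 1.58. Without young replicate 1 the limma adjusted p was 0.0472 and the log2 fold change 0.86. Without old replicate 3 the log2 fold change was 0.49 (adjusted p = 0.193).

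Gjb1, on the X chromosome, was near the floor in 4 libraries and higher in the other 2, both old. It had 4, 42 and 26 reads in old replicates 1, 2 and 3, against 6, 2 and 6 reads in young replicates 1, 2 and 3, which are 3.88, 39.7 and 24.98 normalised read counts in the old and 6.29, 2.07 and 6.13 in the young. Old replicate 1 lay within the young range, and the groups overlapped. The log2 fold change was 1.67 ± 0.79 (SE, 95% interval −0.12 to 3.46, limma adjusted p = 0.264), a scale that understates change at so few reads. Without old replicate 1 it was 2.58 (adjusted p = 0.0419), without old replicate 2 it was 1.05 (0.520) and without old replicate 3 it was 1.38 (0.435). The log2 ratio of Gjb1 to Gjc3 averaged −7.14 ± 1.48 in old and −8.15 ± 0.64 in young mice (SD, n = 3 each). The difference of 1.01 gave p = 0.3 in a two-sided exact permutation test, and it was 0.32 with a pseudocount of 10. It was 1.80 without old replicate 1, 0.34 without old replicate 2 and 0.68 without young replicate 2.

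Of 12 myelinating glia genes, 1 rose, Cnp, and 0 fell, where limma called 2.71% of all genes higher and 2.55% lower in old. Their median log2 fold change was 0.68, and none was at 0 in any library. An unadjusted limma p under 0.05 was found for 5 of them (21.3% of all genes), and 4 had no overlap between the groups (26.1% of all genes). Cnp, the gene of a myelin enzyme, had 2185, 2850 and 2436 normalised read counts in old replicates 1, 2 and 3, against 1858, 1637 and 1493 in the young (0.58 ± 0.13, limma adjusted p = 0.0355). As in Gjc3, all 3 old libraries stood above all young libraries. Mbp, which encodes myelin basic protein, had 4070, 6781 and 10308 in old replicates 1, 2 and 3, against 3598, 4350 and 3895 in the young (0.74 ± 0.30, adjusted p = 0.218). Old replicate 1 lay within the young range of Mbp, and old replicates 2 and 3 lay above it. Pmp22, a gene of peripheral myelin, went the other way, with 3911, 6855 and 5726 in old replicates 1, 2 and 3, against 5722, 7608 and 5930 in the young (−0.25 ± 0.20, adjusted p = 0.536). Sox10, a transcription factor of glia and melanocytes, had 6607, 5249 and 7753 in the old, against 5534, 9013 and 7515 in the young (−0.16, adjusted p = 0.699).

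Summed neuron markers were, like Gjb1, high in old replicates 2 and 3 and within the young range in old replicate 1. The 12 neuron genes summed to 953, 5713 and 6646 normalised read counts in old replicates 1, 2 and 3, against 644 to 986 in the young. Of these genes 3 rose, Stmn2, Thy1 and Scn9a, and 1 fell, Syt1, with a median log2 fold change of 2.55, and 1 gene was at 0 in at least 1 library. The limma shares over all genes were 2.71% higher and 2.55% lower in old. The sum of the 12 glial genes was 18961, 26514 and 30344 in old replicates 1, 2 and 3, against 19282 to 24815 in the young, so that old replicate 1 lay below and the other old libraries above the young range. The 3 most abundant genes in that sum were Sox10, Pmp22 and Mbp, and Sox10 is also a gene of melanocytes. The part of nerve fibres in the Gjb1 and Gjc3 values was not tested.

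**Figure D3:**
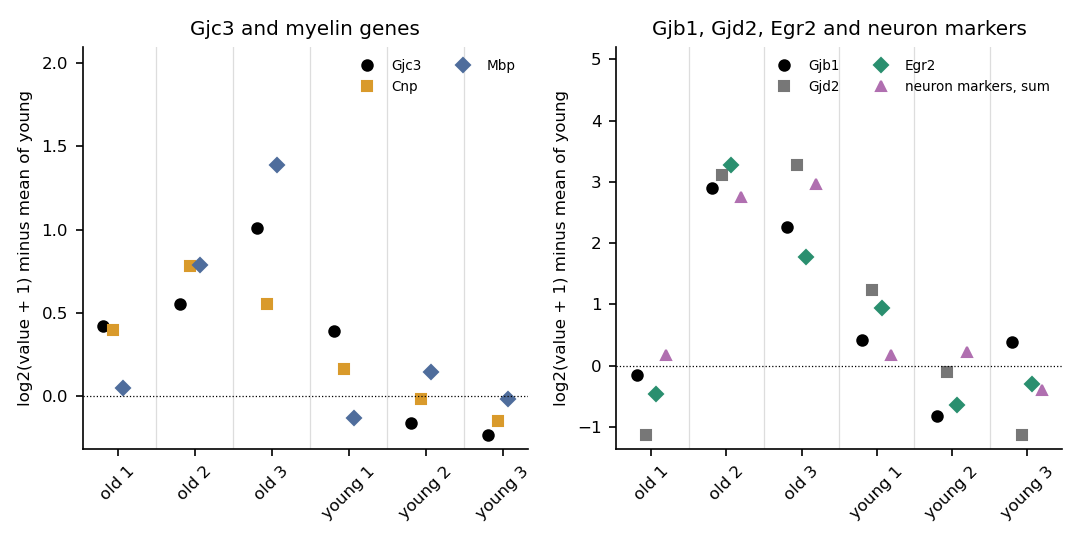
Log2(value + 1) in each library minus the mean of the young libraries (dotted line at 0), for Gjc3 with the myelin genes Cnp and Mbp (left) and for Gjb1 and Gjd2 with the transcription factor gene Egr2 and the summed neuron markers (right). Gjc3 and Cnp lie above every young library in all 3 old libraries, whereas all 4 quantities on the right are at 1.77 or more in old replicates 2 and 3 and at 0.17 or less in old replicate 1. Egr2 was picked among the 3 genes most like Gjb1 over these same libraries, so its likeness to Gjb1 follows from that choice. The glial genes Pmp22 and Sox10, with log2 fold changes of −0.25 and −0.16, are not shown.

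Among the other connexin genes, 1 of 4 analysed rose and 0 fell, where limma called 2.71% of all genes higher and 2.55% lower in old. Gja5, which encodes Cx40 of arterial endothelium, had 55.3, 70.9 and 63.4 normalised read counts in old replicates 1, 2 and 3, against 29.4, 17.6 and 20.4 in young replicates 1, 2 and 3. Every old library was above every young one, and the log2 fold change was 1.48 ± 0.31 (95% interval 0.77 to 2.18, limma adjusted p = 0.0305). The edgeR adjusted p was 0.0349 and the DESeq2 adjusted p was 0.00416. The call was lost without old replicate 2 (adjusted p = 0.0611), old replicate 3 (0.0688), young replicate 2 (0.117) or young replicate 3 (0.127), and with quantile normalisation (0.0650). It was also lost with the replicate number as a block (0.0887). In its exons Gja5 shares 165 bases with Gpr89 on the opposite strand, so its reads are uncertain.

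Gja4, which encodes Cx37 of arterial endothelium, had 176, 295 and 381 normalised read counts in old replicates 1, 2 and 3, against 133, 226 and 192 in the young (log2 fold change 0.59 ± 0.31, 95% interval −0.10 to 1.28, limma adjusted p = 0.310). It was 0.34 without old replicate 3, 0.38 without young replicate 1 and 0.90 without old replicate 1. The 12 endothelial genes summed to 16640, 22880 and 30170 in old replicates 1, 2 and 3, against 19987 to 22161 in the young. Of these limma called 0 (5.25% of all genes), 3 had an unadjusted p under 0.05 (21.3% of all genes) and 0 were at 0 in any library. Their part in the Gja4 and Gja5 values was not tested. The order of the old libraries was the same for Gja4 and the endothelial sum, with replicate 3 highest. Of the 3 most abundant endothelial genes, Pecam1 had that order (log2 fold change 0.34, limma adjusted p = 0.317). Eng (−0.38, adjusted p = 0.0722) and Emcn (−0.18, adjusted p = 0.702) were instead highest in old replicate 2 among the old libraries. Gjd2, which encodes Cx36 of neurons, had 0, 19 and 21 reads in old replicates 1, 2 and 3, against 4, 1 and 0 in the young (log2 fold change 1.75 ± 1.21, limma adjusted p = 0.456). It was 3.19 without old replicate 1, 1.07 without old replicate 2 and 0.99 without old replicate 3. It was high in the same 2 old libraries as Gjb1 and the summed neuron markers, and its exons share 57 bases with A530058N18Rik on the opposite strand, so its reads are uncertain. The epidermal connexin gene Gjb5 had 5 reads in the old and 8 in the young libraries, and at this depth no difference was detectable (limma adjusted p = 0.614).

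**Figure D4:**
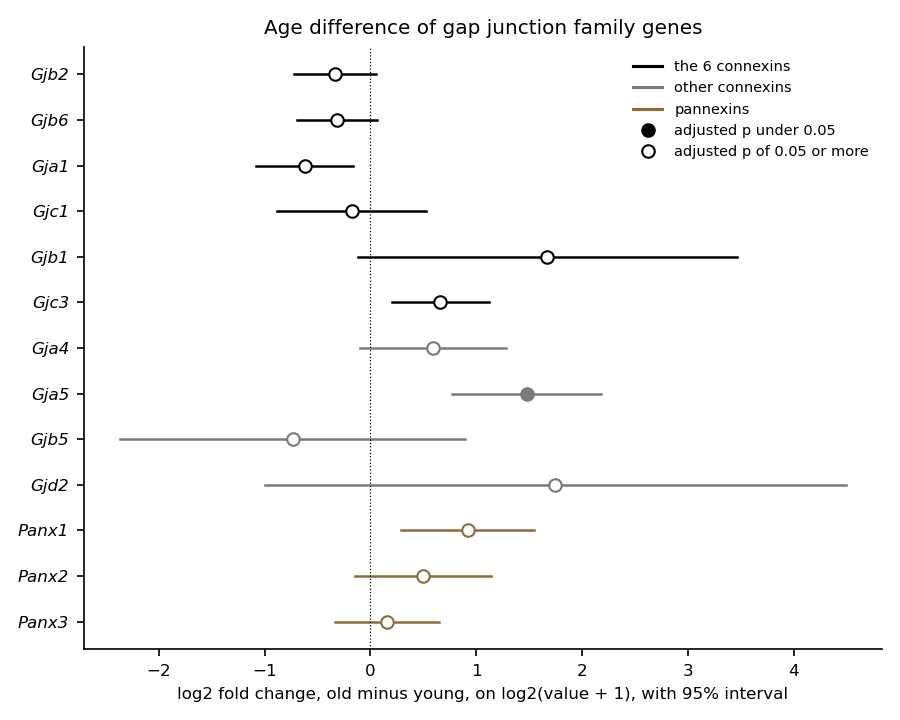
Log2 fold change, old minus young, with its 95% interval for the 6 connexins, the 4 other connexin genes analysed and the 3 pannexins; filled points have a limma adjusted p under 0.05. Gja5 alone is filled, and the intervals of Gja1, Gjc3 and Panx1 also lie to 1 side of 0.

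Pannexins form membrane channels related in topology to connexin hemichannels and release ATP. Of the 3, none was called by limma, edgeR or DESeq2, and 1 had an unadjusted limma p under 0.05 (21.3% of all genes). Panx1 had 60.1, 80.4 and 67.3 normalised read counts in old replicates 1, 2 and 3, against 44.1, 31.1 and 33.7 in the young, without overlap (log2 fold change 0.92 ± 0.28, limma adjusted p = 0.0970). Panx2 had a log2 fold change of 0.49, which was 0.26 without old replicate 3, and overlapping groups. Panx3 had 0.16, which ranged from 0.0014 without young replicate 2 to 0.32 without old replicate 1, also with overlapping groups.

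Of 27 genes for proteins that bind, phosphorylate, traffic or degrade connexins, 1 fell and 0 rose, and their median log2 fold change was −0.05. By the same limma test 2.55% of all genes fell and 2.71% rose. Prkca, the gene of protein kinase C alpha, which phosphorylates Cx43, had 5593, 5333 and 4981 normalised read counts in old replicates 1, 2 and 3, against 9258, 9068 and 10892 in young replicates 1, 2 and 3. The groups lay far apart (log2 fold change −0.87 ± 0.10, limma adjusted p = 0.00308), and the call held in all 16 alternatives. Dab2, a clathrin adaptor, had −0.43 ± 0.12 (adjusted p = 0.0729) and Dbn1, the gene of the actin-binding protein drebrin, −0.64 ± 0.19 (0.0931). DESeq2 called both lower, with adjusted p of 0.0206 for Dab2 and 0.0298 for Dbn1, as does the authors' deposited table (0.0207 and 0.0299), and edgeR called neither (0.0751 and 0.0988). In its exons Dab2 shares 211 bases with Gm18888, and Prkca shares 30 with Apoh, both on the opposite strand, so part of their reads is uncertain. Tjp1, which encodes the scaffold ZO-1 that binds Cx43, had −0.15 ± 0.12 (adjusted p = 0.552).

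The genes most like each member across the 6 libraries were sought among 12799 genes averaging 50 or more, by the root mean square difference of log2 values centred on each gene. For Gjb2 they were Slc1a3, a glutamate transporter gene, the kinase gene Prkd1 and Mdfi, at 0.04, 0.05 and 0.05 log2 units. For Gjb6 they were Sccpdh, Tlcd2 and Pik3ip1, at 0.03, 0.04 and 0.04. Gjb6 was at position 23 in the order for Gjb2, and Gjb2 at position 31 in the order for Gjb6, at 0.08. Gja1 was closest to Wnt16, Pcdhga12 and Rdh9 (0.06 to 0.09) and Gjc1 to Kif26a, Cbfa2t3 and Dnah8 (0.06 to 0.12). Gjb1 was closest to Frmpd4, Egr2 and Fam178b (0.43 to 0.46), and Egr2 encodes a transcription factor required for peripheral myelin. Egr2 had 27.1, 376 and 132 normalised read counts in old replicates 1, 2 and 3, against 73.4, 23.9 and 30.6 in the young. Gjc3 was closest to Plch1, Cdk6 and Prelid2 (0.08 to 0.09). With only 6 libraries and so many genes searched, these are descriptions of likeness in level.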

How the data were processed

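Total RNA was sequenced from the lateral wall of 3 old and 3 young mice, and samples were grouped by title. Per the labels' protocols, the miRNeasy Mini Kit gave the RNA and the TruSeq RNA kit the libraries. The submitters' processing notes name Partek, TopHat2, DESeq2 and mm10, with no roles. The strand setting and annotation used for counting were not given in the sources used here.

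Per gene and library the authors deposited a signal, from its steps a read count divided by a library factor, called normalised read count here, with a total over libraries. They also deposited a p-value, an adjusted p-value (absent for 332 genes) and a signed fold change, which is a score with no values between −1 and 1. Low values were whole multiples of 1 step per library (0.946 to 1.05), and division by it gave numbers within 0.1 of whole in 99.9% of values. Those recovered reads, whose totals differ by at most 1.06 times, entered edgeR 4.0.16 and DESeq2 1.42.0, which called 866 and 1819 genes.

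The main test was limma 3.58.1 (trend, robust, R 4.3.3) on log2(value + 1) of all 17091 genes, with no filter, tested on simulated data beforehand. ± marks the SE of fold changes and the SD of means. Alternatives were quantile normalisation, no trend, a filter on means under 10 and pseudocounts of 0.1 and 10. Others were the 2 count tools, edgeR with the library factors of DESeq2, the authors' results, a replicate block and leaving out each library. Transcript lengths are GENCODE M21. The members and lists were chosen with earlier results of these data known. Named were the members, all other connexins and pannexins, the called partner genes and the 3 with the smallest p, up to 3 abundant genes of a cell type list, and the 3 genes most like each member, leaving out predicted genes. Called genes of cell type lists beyond those 3 were named after their values were seen. Some genes of these lists are not reported here, and list counts and sums leave them out.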

Additional observations from a re-analysis of the deposited data

How the results depend on the processing

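Of 96 results (6 connexins under 16 alternatives), 89 kept the direction and the side of the threshold of the reported value. Gja1 passed with DESeq2 (−0.62) and in the authors' deposited table (−0.62), and Gjc3 with DESeq2 (0.66), in the authors' deposited table (0.66) and without young replicate 1 (0.86). The DESeq2 and deposited results rest on the same values and are nearly equal, so they are not separate alternatives. Likewise the 2 edgeR settings used the same reads and differed only in library factors (Gja1 adjusted p = 0.121 and 0.117). Gjb1 passed without old replicate 1 (2.58), and Gjc1 turned to 0.14 there. Without 1 library each, the log2 fold changes ranged from −0.51 to −0.17 for Gjb2, −0.45 to −0.12 for Gjb6, −0.72 to −0.46 for Gja1, −0.49 to 0.14 for Gjc1, 1.05 to 2.58 for Gjb1 and 0.49 to 0.86 for Gjc3. The difference in the log2 ratio of Gjb2 to Gjb6 ranged from −0.059 to 0.060 (0.060 without old replicate 1 and 0.01 without young replicate 1) and that of Gjb1 to Gjc3 from 0.34 to 1.80.

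Against 898 genes called (463 higher, 435 lower), limma without a trend called 307 (194 and 113), DESeq2 1819 (976 and 843), and the authors' deposited table holds 1818 (975 and 843). Leaving out 1 library gave 230 to 1134 (139 to 554 higher and 91 to 580 lower). The cause of these shifts was not tested. With the replicate number as a block, 406 were called (230 and 176), 0 of the 6 connexins among them, and the log2 ratio of Gjb2 to Gjb6 differed by −0.02 (exact sign-flip permutation p = 1). Deviations of same-numbered libraries correlated at −0.24, −0.10 and −0.09 over 13308 genes, and those of other-numbered libraries at −0.15 to 0.24. As deviations are centred on groups of 3 libraries, these values cannot settle whether the numbers pair the animals.

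Depth limits Gjb1, Gjb5 and Gjd2, which had 5 to 72 reads per group. With 3 animals per group, the 95% interval of Gjb2 spans 0.77 log2 units.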
